A study of Drosophila melanogaster with 26 samples.

Results

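The nuclear lamina genes described here are *Lam*, *LamC*, *LBR*, *Ote*, *bocks* and *MAN1*, which are 6 of the 17489 genes counted in each RNA-seq library. They were chosen by name as the lamins and inner nuclear membrane proteins of *Drosophila*, and the rule itself uses no measured value. All 6 had reads in each of the 26 libraries and passed the filter of every test. RNA was sequenced from S2 cells (S2-DRSC, a male line) and Kc cells (Kc167, a female line) treated with double-stranded RNA (dsRNA) against *jasper*, against *jil-1* or with control dsRNA. The groups were S2 *jasper* RNAi (n = 4), S2 *jil-1* RNAi (n = 5) and S2 control (n = 5), and Kc *jasper* RNAi, Kc *jil-1* RNAi and Kc control (n = 4 each). In every group dsRNA was given at 10 µg/mL, given again after 3 days, and the cells were grown for 4 days more. JIL-1 is a kinase that phosphorylates histone H3 in interphase chromatin, and JASPer is the PWWP domain protein that anchors and stabilises it. Each line is one cell line of its sex, so line and sex cannot be told apart.

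The lamina is a meshwork of intermediate filament proteins under the inner nuclear membrane that holds the nucleus in shape and binds silent chromatin. *Drosophila* has a B-type lamin, encoded by *Lam* and made in nearly all cells, and an A-type lamin, encoded by *LamC* and known to appear later in development and in differentiating cells. LBR, the lamin B receptor, spans the inner membrane and binds lamin and chromatin. Otefin (*Ote*), Bocksbeutel (*bocks*) and MAN1 carry a LEM domain, which binds the chromatin protein BAF, and MAN1 also dampens BMP signalling.

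In the release 6 genome *Lam* (FBgn0002525) lies on chromosome arm 2L from 5542480 to 5546642, on the plus strand, with 3737 bases of exon. *LamC* (FBgn0010397) lies on 2R from 14570810 to 14575771, on the minus strand, with 2450 bases of exon, inside *ttv*, a gene on the opposite strand with which it shares 0 exon bases. *LBR* (FBgn0034657) lies on 2R from 21720495 to 21724055, on the plus strand, with 2915 bases of exon. *Ote* (FBgn0266420) is a single exon of 1571 bases on the minus strand of 2R from 18275607 to 18277177. *MAN1* (FBgn0034962) lies on the plus strand of 2R from 24033974 to 24036707, with 2479 bases of exon. *bocks* (FBgn0037719) is a single exon of 1535 bases on the minus strand of 3R from 9589468 to 9591002, and 114 of these bases are shared with *P58IPK* on the other strand. Thus 0 of the 6 lie on the X chromosome.

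Reads on genes were between 4038886 and 17648358 per library in S2 cells and between 2513223 and 17419281 in Kc cells. The male-specific RNA *roX2* had 520 to 956 CPM (scaled reads on a gene as parts of all gene reads in its library) in S2 libraries and 0.616 to 21.4 CPM in Kc libraries, and the male dosage compensation gene *msl-2* 46.8 to 61.7 and 6.03 to 13.2 CPM. The other roX RNA, *roX1*, overlapped between the lines over control and RNAi libraries, with 0.569 to 26.9 CPM in S2 and 0.916 to 33.6 CPM in Kc libraries. Between control cells all 3 of these genes were higher in S2 cells (adjusted p below 0.05 in edgeR's quasi-likelihood test), as were 32.9% of all genes tested. Of 4 blood cell markers, the GATA factor *srp* had like levels (153 to 225 CPM in S2 and 151 to 257 CPM in Kc libraries), while the others differed between the lines. *Pxn* had 1310 to 5870 CPM in S2 and 19 to 190 CPM in Kc libraries, *Hml* 14.4 to 45.7 and 954 to 2280 CPM, and *NimC1* 25.3 to 60.7 and 4.29 to 23.8 CPM. The muscle gene *Mhc* and the neuronal gene *nSyb* did not exceed 2.46 CPM in any library, but the other listed marker of each tissue was present throughout, *Mef2* at 41.3 to 62 CPM in S2 and 30.6 to 41.6 CPM in Kc and *elav* at 25.9 to 40 CPM in S2 and 20.8 to 44.1 CPM in Kc libraries. Reads opposite to *JASPer* reached 132 to 1240 CPM in the S2 and 18.7 to 3640 CPM in the Kc libraries of *jasper* RNAi, against at most 10.5 and 4.03 CPM in the other libraries of each line. Reads opposite to *JIL-1* were likewise 109 to 400 and 59.7 to 160 CPM in *jil-1* RNAi libraries, against at most 13.1 and 6.68 CPM elsewhere. On the targets' own strands the same libraries held from 15.0 to 1980 CPM. Reads of the dsRNA and of the gene cannot be told apart there, so the size of the knockdown was not measured. The lowest *JASPer* values upon *jasper* RNAi were 15.0 CPM in Kc and 59.4 CPM in S2 cells, against at least 82.5 and 114 CPM elsewhere. For *JIL-1* upon *jil-1* RNAi they were 35.9 and 88.7 CPM, against at least 42.8 and 63.8 CPM elsewhere. By western blot the authors found JIL-1 protein depleted upon either RNAi in both lines.

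The lines differed most in the A-type lamin. *LamC* had 16.6, 18.3, 13.2, 15.3 and 23.7 CPM in the 5 S2 control libraries, against 156, 154, 120 and 127 CPM in the 4 Kc control libraries. Every S2 control library was far below every Kc control library. *LamC* was 8.12-fold lower in S2 than in Kc control cells (log2 difference -3.02, 95% interval -3.36 to -2.69, adjusted p = 7.09e-09 in edgeR's quasi-likelihood test with Benjamini-Hochberg adjustment over all genes, the source of each adjusted p here). Counted without regard to strand, which adds reads from the strand of *ttv*, the log2 difference was -2.13. The B-type lamin *Lam*, by contrast, had 377, 422, 410, 440 and 412 CPM in S2 control and 390, 349, 320 and 307 CPM in Kc control libraries. These ranges overlapped, and *Lam* was higher in S2 control cells by 0.26 on the log2 scale (95% interval 0.07 to 0.44, adjusted p = 0.0172). That call rested on Kc control replicate 3, without which the difference was 0.22 with an adjusted p of 0.0546.

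Of the LEM domain genes, *Ote* and *MAN1* were higher and *bocks* was lower in S2 than in Kc control cells. *MAN1* had 50, 45.5, 48.2, 47.2 and 58.8 CPM in S2 control libraries, against 25, 27.3, 23.7 and 25.5 CPM in Kc control libraries. No library of one line came near the range of the other, and *MAN1* was 1.95-fold higher in S2 control cells (log2 difference 0.97, 95% interval 0.77 to 1.16, adjusted p = 1.42e-06). *Ote* had 172, 168, 193, 217 and 166 CPM in S2 control libraries, against 97.8, 101, 131 and 130 CPM in Kc control libraries. It was 1.58-fold higher in S2 control cells (95% interval of the log2 difference 0.41 to 0.91, adjusted p = 0.000272), again without overlap. *bocks* had 38, 41.1, 43, 35 and 40.4 CPM in S2 control libraries, against 56.7, 63.4, 50.5 and 53.1 CPM in Kc control libraries, with a log2 difference of -0.51 (95% interval -0.70 to -0.32, adjusted p = 0.000236). The lamin B receptor gene *LBR* had 65.4, 72, 68, 78.4 and 67.1 CPM in S2 control and 86.1, 77, 92.2 and 92.9 CPM in Kc control libraries. Its S2 value in replicate 9 passed the lowest Kc value, and *LBR* was lower in S2 control cells by a log2 difference of -0.33 (95% interval -0.50 to -0.15, adjusted p = 0.00318).

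All 6 lamina genes thus differed between the lines, 3 higher and 3 lower in S2 control cells, where 32.9% of 8375 tested genes were higher and 35.1% lower. A call in this comparison was common among all genes, so the sizes and not the number of calls set the members apart from each other. Batch numbers are given within each line, and the labels do not say whether equal numbers mark one batch, so line and batch cannot be told apart. With the number entered as a shared batch all 6 calls stood. In bulk libraries, fewer cells that make a transcript and less of it per cell cannot be told apart.

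Compared per length, in CPM per kb of exon, the order of the genes changed between the lines. In S2 control cells *Ote* (117 ± 13.8, SD, n = 5) and *Lam* (110 ± 6.1) stood highest and overlapped. *bocks* (25.7 ± 1.99), *LBR* (24.1 ± 1.78) and *MAN1* (20.1 ± 2.1) followed, each overlapping its neighbour, and *LamC* (7.11 ± 1.62) was lowest and apart. In Kc control cells *Lam* (91.4 ± 9.81, SD, n = 4), *Ote* (73.2 ± 11.7) and *LamC* (56.8 ± 7.46) stood highest, each overlapping its neighbour. *bocks* (36.4 ± 3.63), *LBR* (29.9 ± 2.52) and *MAN1* (10.2 ± 0.602) followed, each apart from the gene above. *LamC* therefore held the last place in S2 and the third in Kc control cells. Its share of the per-length level of both lamins was 6.05 ± 1.34% in S2 control cells (SD, n = 5) and 38.3 ± 1.55% in Kc control cells (SD, n = 4).

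**Figure D1:**
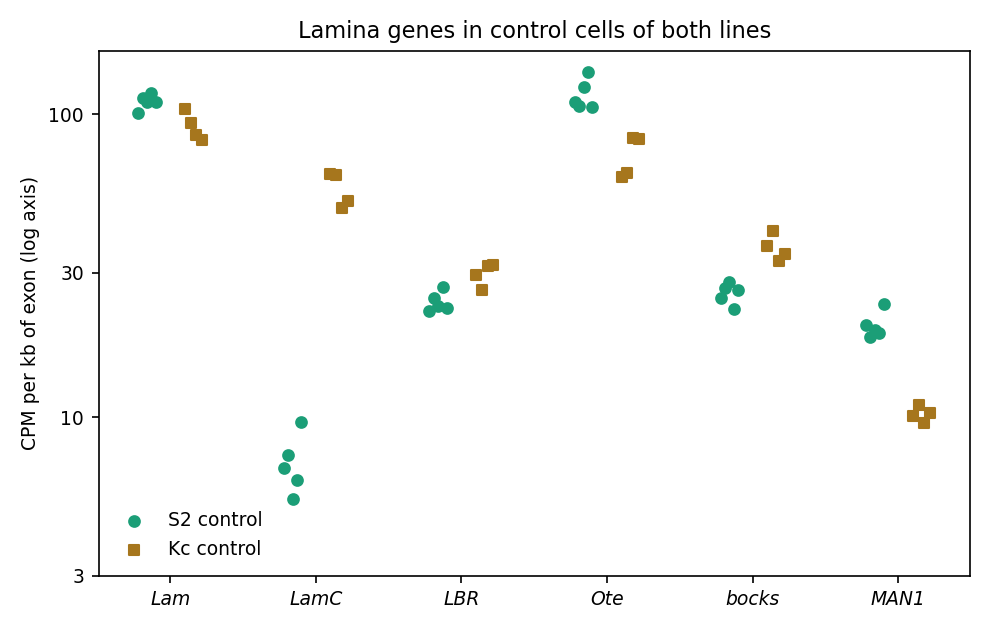
Level of each lamina gene per length (CPM per kb of exon, log axis) in the 5 S2 control (circles) and 4 Kc control (squares) libraries, 1 point per library. *LamC* is 8.12-fold lower and *MAN1* 1.95-fold higher in S2 control cells, while the points of *Lam* and *LBR* overlap between the lines.

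*LamC* fell in S2 cells upon RNAi of either gene. Upon *jasper* RNAi *LamC* had 11, 11.5, 8.03 and 11.6 CPM in replicates 4, 5, 8 and 9, against 16.6, 18.3, 13.2, 15.3 and 23.7 CPM in control replicates 4, 5, 8, 9 and 11. All 4 *jasper* RNAi libraries were below all 5 control libraries. The group means were 10.5 ± 1.7 CPM (SD, n = 4) upon *jasper* RNAi and 17.4 ± 3.98 CPM (SD, n = 5) in control cells. *LamC* fell 1.49-fold (log2 fold-change -0.57, standard error 0.11, 95% interval -0.81 to -0.34, adjusted p = 0.00213). Within batches 1 and 2 the log2 difference was -0.63 and -0.56.

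Upon *jil-1* RNAi *LamC* had 10.8, 13.4, 10.6, 11.4 and 17.5 CPM in S2 replicates 4, 5, 8, 9 and 11, a mean of 12.7 ± 2.86 CPM (SD, n = 5) against the same controls. The ranges overlapped through replicate 11, whose control was also the highest, and each *jil-1* RNAi library was below the control of its number. Libraries of equal number in a line share a batch but were not treated as pairs. Comparisons by number, here and below, only describe the values. *LamC* fell 1.35-fold (log2 fold-change -0.44, standard error 0.10, 95% interval -0.65 to -0.22, adjusted p = 0.00648). Within batches 1, 2 and 3 the log2 difference was -0.53, -0.37 and -0.44, batch 3 holding a single *jil-1* RNAi and a single control library. Without a batch term the log2 fold-change was -0.46 and the adjusted p 0.131. *LamC* did not differ detectably between *jasper* and *jil-1* RNAi in S2 cells (log2 difference -0.14, 95% interval -0.38 to 0.10, adjusted p = 0.543).

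**Figure D2:**
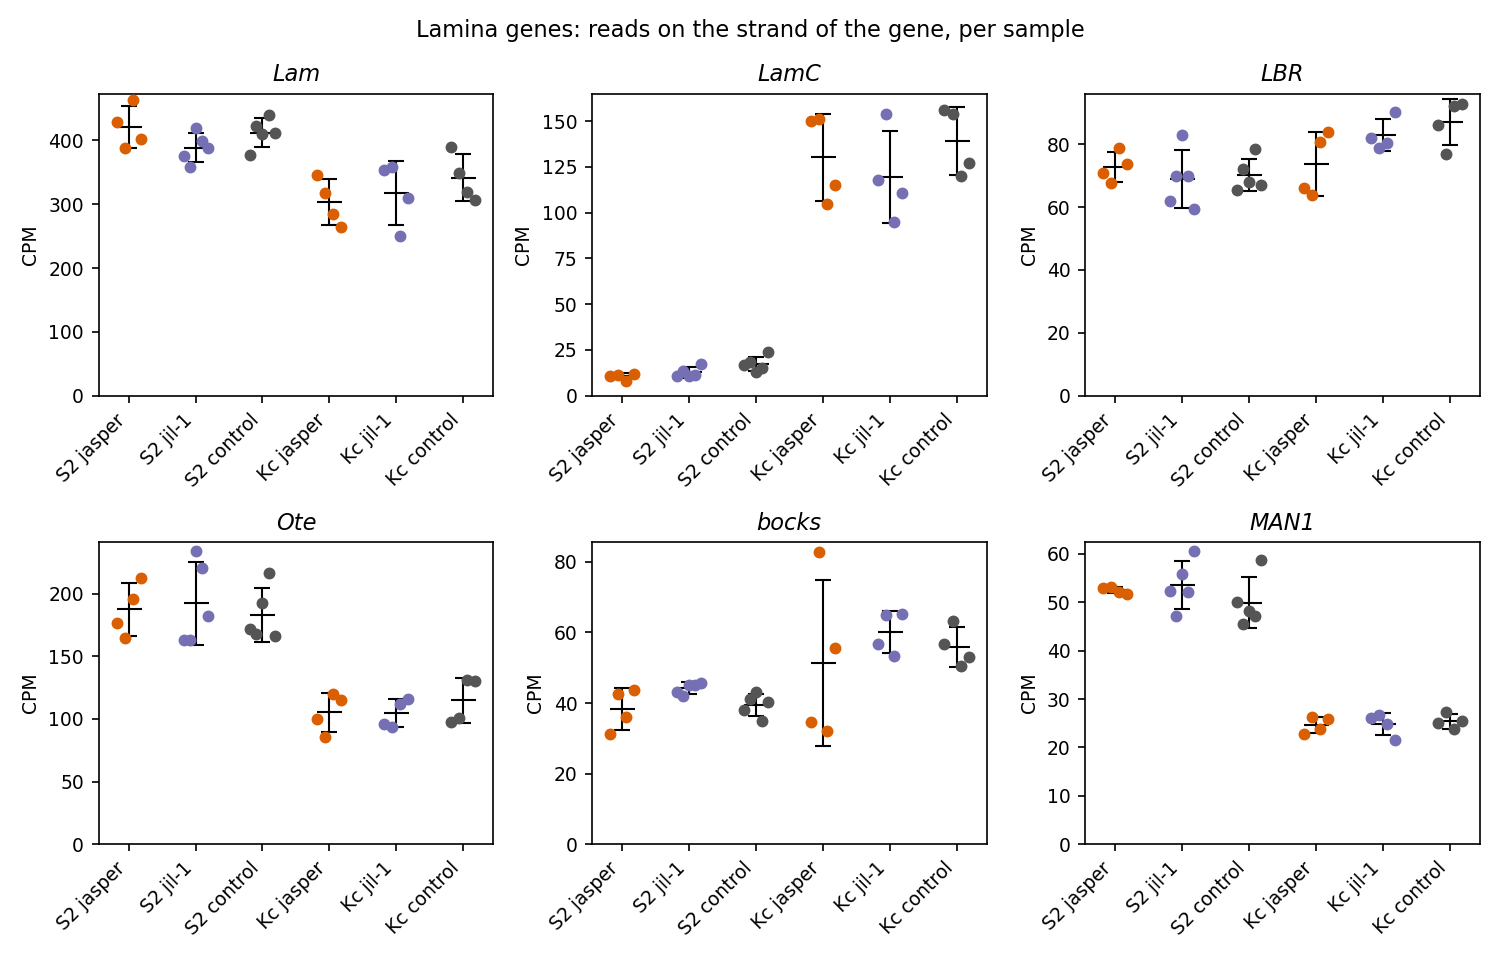
CPM of each lamina gene in all 26 libraries (1 point each; bars, mean ± SD) by line and RNAi, with a linear axis that starts at 0. *LamC* in S2 cells lies at 8.03 to 11.6 CPM upon *jasper* RNAi, below the 13.2 to 23.7 CPM of the controls, and *bocks* spreads from 32.2 to 82.9 CPM in Kc *jasper* RNAi libraries.

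The S2 values of *LamC* rest on few reads and on the strand. Each S2 library held 51 to 225 reads on its strand, a counting error of 6.67 to 14.0%, and 59 to 256 reads on the opposite strand, that of *ttv*, which encodes an enzyme of heparan sulfate synthesis. The opposite strand had 15.4, 19.3, 14 and 16.3 CPM upon *jasper* RNAi, 17.1, 20, 13.4, 16.7 and 16.3 CPM upon *jil-1* RNAi and 12.2, 16.3, 14.5, 14.1 and 21.6 CPM in control S2 cells, so its ranges overlapped in all 3 groups. Counted without regard to strand, *LamC* had a log2 fold-change of -0.19 (adjusted p = 0.185) upon *jasper* RNAi and -0.15 (adjusted p = 0.281) upon *jil-1* RNAi in S2 cells. In Kc cells the opposite strand held only 4 to 30 reads beside 293 to 2764 on the strand of *LamC*.

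In Kc cells *LamC* passed the threshold upon neither RNAi. It had 150, 151, 105 and 115 CPM upon *jasper* RNAi and 118, 154, 94.7 and 111 CPM upon *jil-1* RNAi, against 156, 154, 120 and 127 CPM in Kc control cells. Every RNAi library was below the control of its number, replicate 2 by the least, with log2 fold-changes of -0.11 (95% interval -0.29 to 0.06, adjusted p = 0.438) upon *jasper* RNAi and -0.23 (95% interval -0.41 to -0.05, adjusted p = 0.133) upon *jil-1* RNAi. The response to *jasper* RNAi was stronger in S2 than in Kc cells by -0.47 on the log2 scale (interaction of line and RNAi, 95% interval -0.75 to -0.19, adjusted p = 0.0459). This call was close to the threshold: leaving out 1 library at a time moved the adjusted p between 0.0153 and 0.15, above the threshold in 17 of 26 fits, and without S2 *jasper* RNAi replicate 8 the difference was -0.36. Without a batch term the difference was -0.64 (adjusted p = 0.286), and counted without regard to strand it was -0.10 (adjusted p = 0.771). For *jil-1* RNAi the difference between lines was -0.20 (95% interval -0.46 to 0.06, adjusted p = 0.351). As a share of both lamins per length, *LamC* had 3.72 ± 0.794% upon *jasper* RNAi (n = 4) and 4.78 ± 1.11% upon *jil-1* RNAi (n = 5), against 6.05 ± 1.34% in S2 control cells (n = 5). The highest control share, 8.07%, is that of replicate 11, whose batch holds no *jasper* RNAi library. In Kc cells the share was 39.5 ± 2.48% upon *jasper* RNAi and 36.3 ± 2.43% after RNAi of *jil-1*, against 38.3 ± 1.55% in control cells (SD, n = 4 each).

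The B-type lamin *Lam* was called upon neither RNAi in either line. In S2 cells it had 429, 389, 463 and 402 CPM upon *jasper* RNAi and 376, 359, 419, 399 and 389 CPM upon *jil-1* RNAi, against 377, 422, 410, 440 and 412 CPM in control cells. The groups overlapped, and the log2 fold-changes were 0.03 (95% interval -0.08 to 0.15, adjusted p = 0.727) and -0.09 (95% interval -0.19 to 0.02, adjusted p = 0.239). In Kc cells *Lam* had 346, 318, 285 and 264 CPM upon *jasper* RNAi and 353, 359, 250 and 310 CPM upon *jil-1* RNAi, against 390, 349, 320 and 307 CPM in control cells. All 4 *jasper* RNAi libraries were below the control of their number, with a log2 fold-change of -0.18 (95% interval -0.35 to -0.01, adjusted p = 0.193). After *jil-1* depletion the log2 fold-change of *Lam* was -0.11 (95% interval -0.28 to 0.06, adjusted p = 0.467). The *jasper* RNAi response of *Lam* differed between lines by 0.20 (95% interval 0.02 to 0.39, adjusted p = 0.226), which did not pass.

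*LBR* came nearest to the threshold in Kc cells. It had 66.1, 63.9, 80.7 and 83.9 CPM upon *jasper* RNAi, against 86.1, 77, 92.2 and 92.9 CPM in Kc control cells, and each *jasper* RNAi library was below the control of its number. The log2 fold-change was -0.26 (standard error 0.07, 95% interval -0.41 to -0.11, adjusted p = 0.0588), and within batches 1 and 2 it was -0.33 and -0.17. DESeq2 gave -0.26 with an adjusted p of 0.0257, and edgeR without Kc *jil-1* RNAi replicate 3 gave -0.26 with 0.0359, so the call depends on the tool and on the libraries that share the spread. Upon *jil-1* RNAi *LBR* had 82.1, 78.7, 80.4 and 90.2 CPM in Kc cells, with a log2 fold-change of -0.07 (95% interval -0.23 to 0.09, adjusted p = 0.624). In S2 cells *LBR* had 70.8, 67.7, 78.7 and 73.8 CPM upon *jasper* RNAi and 61.9, 70, 83.1, 69.8 and 59.4 CPM upon *jil-1* RNAi, against 65.4, 72, 68, 78.4 and 67.1 CPM in control cells. Both log2 fold-changes were near 0, at 0.03 (95% interval -0.11 to 0.18) and -0.02 (95% interval -0.16 to 0.11). The *jasper* RNAi response of *LBR* differed between lines by 0.28 (95% interval 0.07 to 0.48, adjusted p = 0.12), which did not pass.

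**Figure D3:**
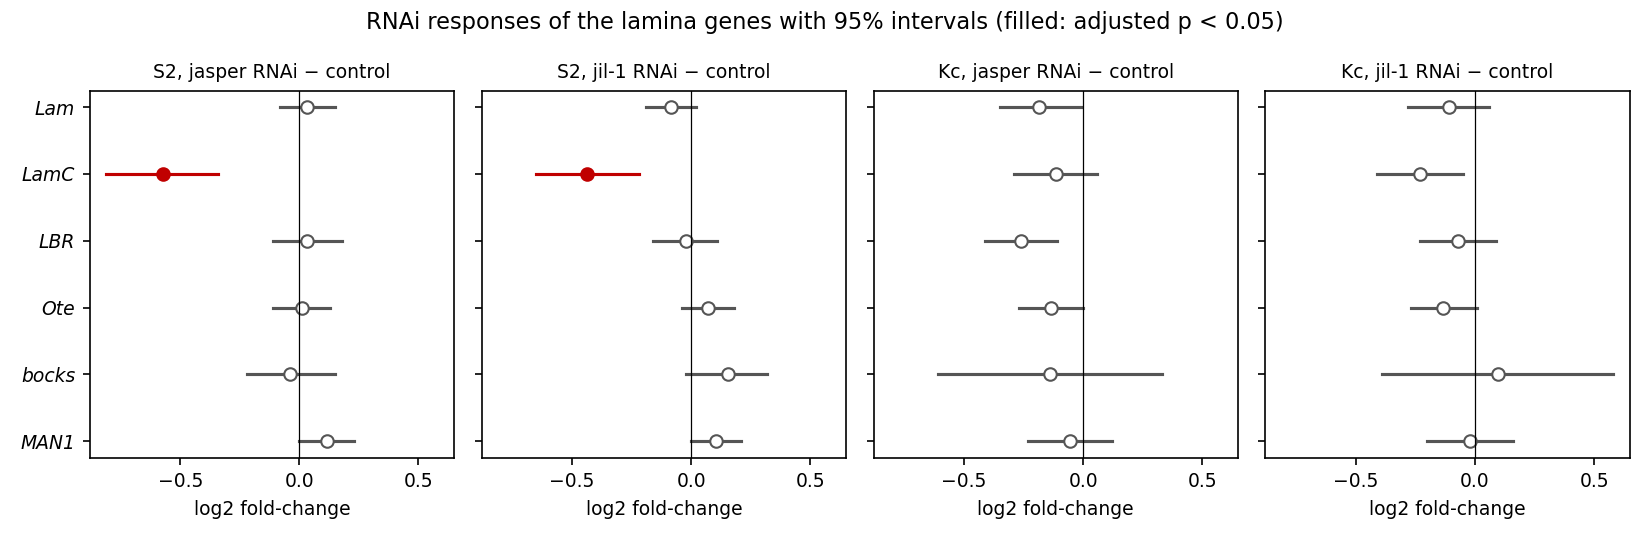
Log2 fold-change of each lamina gene upon RNAi relative to control in S2 and Kc cells, with 95% intervals; filled red points passed the threshold of 0.05 on the adjusted p. *LamC* in S2 cells, at -0.57 and -0.44, holds both filled points, and *bocks* has the widest intervals in Kc cells (-0.61 to 0.33 upon *jasper* RNAi).

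None of the 3 LEM domain genes was called upon RNAi in either line. *MAN1* had 52.9, 53.2, 52.2 and 51.7 CPM upon *jasper* RNAi and 52.3, 47.1, 55.9, 52.2 and 60.5 CPM in the *jil-1* RNAi libraries of S2 cells, against 50, 45.5, 48.2, 47.2 and 58.8 CPM in control cells. Each RNAi library was above the control of its number, in 4 of 4 and 5 of 5 libraries, though the numbers were not used as pairs. The log2 fold-changes were small, at 0.12 (95% interval 0.00 to 0.23, adjusted p = 0.136) and 0.11 (95% interval 0.00 to 0.21, adjusted p = 0.148). In Kc cells *MAN1* had 22.8, 26.2, 23.7 and 25.9 CPM upon *jasper* RNAi and 26, 26.7, 24.9 and 21.5 CPM upon *jil-1* RNAi, against 25, 27.3, 23.7 and 25.5 CPM in control cells. These groups overlapped, with log2 fold-changes of -0.06 (95% interval -0.23 to 0.12) and -0.02 (95% interval -0.20 to 0.16).

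*Ote*, which is known for its role in keeping germline stem cells, had 177, 165, 196 and 213 CPM upon *jasper* RNAi and 163, 163, 234, 221 and 182 CPM in the *jil-1* RNAi libraries of S2 cells, against 172, 168, 193, 217 and 166 CPM in control cells. The log2 fold-changes were 0.01 (95% interval -0.11 to 0.13) and 0.07 (95% interval -0.04 to 0.18), within the spread of the libraries. In Kc cells *Ote* had 100, 85.8, 120 and 115 CPM upon *jasper* RNAi and 96.4, 93.5, 112 and 116 CPM upon *jil-1* RNAi, against 97.8, 101, 131 and 130 CPM in control cells. The log2 fold-changes were -0.14 (adjusted p = 0.23) and -0.13 (adjusted p = 0.258), and all 4 *jil-1* RNAi libraries were below the control of their number. The *jil-1* RNAi response differed between lines by 0.20 (95% interval 0.04 to 0.37, adjusted p = 0.123).

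*bocks* spread more among Kc *jasper* RNAi libraries than any other lamina gene, with 34.7, 82.9, 32.2 and 55.6 CPM in replicates 1, 2, 3 and 4, against 56.7, 63.4, 50.5 and 53.1 CPM in Kc control cells. Replicates 1 and 3 were below every control library and replicate 2 above all of them. The log2 fold-change of -0.14 (standard error 0.22, 95% interval -0.61 to 0.33, adjusted p = 0.758) averages these values, and it was 0.05 without replicate 1. The strand of the reads on *JASPer* moved with this spread, a feature singled out after the values were seen. Kc *jasper* RNAi replicates 1 and 3 had 15.0 and 75.7 CPM on the strand of *JASPer* and 3640 and 376 CPM on the opposite strand. Replicates 2 and 4 had 1980 and 1040 CPM on the strand of *JASPer* and 18.7 and 31.8 CPM opposite to it.

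The same order was seen in S2 cells. *bocks* had 31.2, 42.7, 36 and 43.8 CPM in S2 *jasper* RNAi replicates 4, 5, 8 and 9, against 38, 41.1, 43, 35 and 40.4 CPM in control replicates 4, 5, 8, 9 and 11. Replicates 4 and 8 had 59.4 and 107 CPM on the strand of *JASPer* and 1160 and 1240 CPM opposite to it, while replicates 5 and 9 had 1100 and 1640 CPM on the strand and 132 and 260 CPM opposite. In each of the 4 batches of both lines that hold *jasper* RNAi libraries, the library with more reads opposite to *JASPer* had the lower *bocks* level. Each of these batches holds only 2 *jasper* RNAi libraries, and the share of all genes with this order was not counted. The labels do not say which dsRNA a library received, no library was grouped by this feature, and its part in the *bocks* values was not tested. Upon *jil-1* RNAi *bocks* had 43, 41.9, 45.2, 45.1 and 45.8 CPM in S2 cells, above the control of its number in 5 of 5 libraries (log2 fold-change 0.15, 95% interval -0.02 to 0.32, adjusted p = 0.192). In Kc cells *bocks* had 56.6, 65.1, 53.4 and 65.3 CPM upon *jil-1* RNAi (log2 fold-change 0.10, adjusted p = 0.864).

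**Figure D4:**
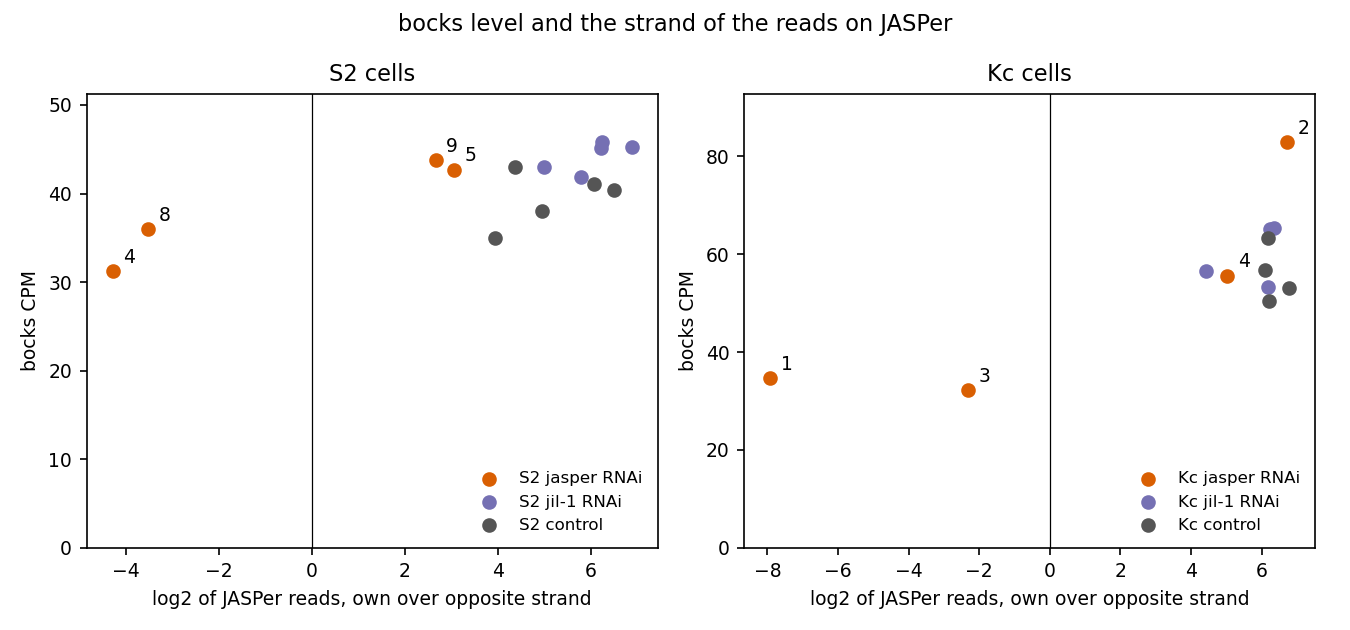
*bocks* CPM against the log2 ratio of reads on the strand of *JASPer* to reads opposite to it, in S2 (left) and Kc (right) libraries, 1 point per library, with numbers giving the *jasper* RNAi replicates. Replicates 4 and 8 in S2 cells (31.2 and 36 CPM) and 1 and 3 in Kc cells (34.7 and 32.2 CPM) lie left of 0, where opposite-strand reads exceed own-strand reads.

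Counted together, 0 of 6 lamina genes rose and 1 fell upon *jasper* RNAi in S2 cells, where 8.45% of 8465 tested genes rose and 11.9% fell. Upon *jil-1* RNAi in S2 cells 0 rose and 1 fell, where 9.12% of all genes rose and 12.3% fell. In Kc cells 0 of 6 were called upon either RNAi, where 1.76% of 8847 tested genes rose and 2.79% fell upon *jasper* RNAi and 1.35% rose and 2.18% fell upon *jil-1* RNAi. At an unadjusted p under 0.05 there were 2 lamina genes upon *jasper* RNAi and 1 for RNAi of *jil-1* in Kc cells. DESeq2, at an adjusted p under 0.05, called 1 and 0 of the 6 there. Over all genes it called 709 and 634, against 403 and 312 with edgeR. The share of all genes at an unadjusted p under 0.05 was not counted in any comparison. Whether the unadjusted counts exceed that share is therefore not known. The share called among 6 genes is thus near that of all genes in S2 cells, and the result there is about *LamC* alone. The median log2 fold-change of the 6 genes was 0.02 upon each RNAi in S2 cells, and in Kc cells -0.14 upon *jasper* RNAi and -0.09 for RNAi of *jil-1*, where the median of all genes was 0.005 for both. Between *jasper* and *jil-1* RNAi 0 of 6 differed in either line, where 6.38% of genes differed in S2 and 0.588% in Kc cells. There were 2 lamina genes at an unadjusted p under 0.05 in S2 and 1 in Kc cells. The *jasper* RNAi response differed between lines for 1 of 6, *LamC*, where 4.32% of 7909 genes tested in both lines differed. The *jil-1* RNAi response differed for 0 of 6, where 7.93% did. At an unadjusted p under 0.05 there were 3 lamina genes for the *jasper* and 1 for the *jil-1* RNAi response. The comparisons of RNAi with control within a line share the control libraries.

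Other genes of the nuclear envelope were read from 3 lists. Of 10 envelope and lamina-binding genes 9 were tested, the sperm gene *spag4* having at most 1 read. Upon *jasper* RNAi in S2 cells 3 of these 9 rose and 2 fell, beside 8.45% and 11.9% of all genes tested. *kuk*, a farnesylated inner membrane protein that shapes the nucleus, rose by 0.35 on the log2 scale (176 ± 7.57 CPM upon *jasper* RNAi, n = 4, against 141 ± 9.38 CPM in control cells, n = 5; adjusted p = 0.000848), and *ball*, a kinase that acts on BAF, rose by 0.18 (adjusted p = 0.00877). *Lpin*, a phosphatidic acid phosphatase of lipid synthesis, had a log2 fold-change of -0.27 (adjusted p = 0.0126), and *Torsin*, an X-linked ATPase of the envelope lumen, one of -0.25 (adjusted p = 0.00148). The other X-linked gene of this list, *fs(1)Ya*, was not called (0.53, adjusted p = 0.208). *kuk* was also the only listed gene that differed between *jasper* and *jil-1* RNAi in S2 cells (log2 difference 0.28, adjusted p = 0.00909). In that comparison 6.38% of all genes tested differed.

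Upon *jil-1* RNAi in S2 cells 1 of 9 envelope genes rose and 4 fell, beside 9.12% and 12.3% of all genes. *klar*, a KASH domain protein that links the nucleus to microtubules, rose by 0.17 (adjusted p = 0.0149). *Lpin* fell with a log2 fold-change of -0.29 (adjusted p = 0.00437) and *koi*, the SUN domain partner of KASH proteins, with one of -0.23 (adjusted p = 0.0114). In Kc cells 0 of 9 rose and 1 fell upon each RNAi, where 2.79% of all genes fell upon *jasper* RNAi and 2.18% for RNAi of *jil-1*. It was *Lpin* upon *jasper* RNAi (log2 fold-change -0.44, adjusted p = 0.0427, 132 ± 16.1 CPM against 178 ± 21.7 CPM in control cells, n = 4 each) and *Torsin* upon *jil-1* RNAi (log2 fold-change -0.35, adjusted p = 0.0354).

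Of 6 genes for the farnesylation, cleavage and methylation of the lamin tail 5 were tested, *ste24c* having at most 1 read. Upon *jasper* RNAi 0 were called in S2 (8.45% of all genes rose and 11.9% fell) or in Kc cells (1.76% and 2.79%). Upon *jil-1* RNAi 2 of 5 rose and 1 fell in S2 cells (9.12% and 12.3% of all genes). In Kc cells 0 were called upon *jil-1* RNAi, where 1.35% of all genes rose and 2.18% fell. At an unadjusted p under 0.05 there were 2 upon *jasper* RNAi in S2 cells, and 1 upon each RNAi in Kc cells. No share of all genes was counted at this unadjusted threshold. In S2 cells *Icmt*, the carboxyl methyltransferase, rose by 0.29 (adjusted p = 0.00549) and the farnesyltransferase subunit gene *Fnta* by 0.11 (adjusted p = 0.0486), while its partner *Fntb* had a log2 fold-change of -0.20 (adjusted p = 0.0298). The *jil-1* RNAi response of *Fnta* differed between lines (0.25, adjusted p = 0.0278).

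Of 29 nuclear pore genes, all tested, 4 rose and 1 fell upon *jasper* RNAi in S2 cells (8.45% and 11.9% of all genes), and 4 rose and 2 fell upon *jil-1* RNAi (9.12% and 12.3% of all genes). *Nup43*, of the scaffold's outer ring, rose by 0.41 (adjusted p = 6.48e-05) upon *jasper* RNAi and 0.35 (adjusted p = 0.000156) upon *jil-1* RNAi. *mbo*, the *Drosophila* Nup88, rose by 0.27 (adjusted p = 0.00591) and 0.23 (adjusted p = 0.00969). The X-linked *Nup35*, of the inner ring, fell upon both, with log2 fold-changes of -0.61 (adjusted p = 6.57e-05) and -0.35 (adjusted p = 0.00332). *Elys*, an X-linked gene whose product seeds pores on chromatin, had a log2 fold-change of -0.18 upon *jil-1* RNAi (adjusted p = 0.00992). Upon *jasper* RNAi it was not called (-0.12, adjusted p = 0.101). The other X-linked genes of this list, *Nup205*, *Nup93-1*, *Nup153* and *Aladin*, were called upon neither RNAi in S2 cells. Their log2 fold-changes were -0.123 to -0.018 upon *jasper* and -0.105 to 0.037 upon *jil-1* RNAi. In Kc cells 0 rose and 1 fell upon *jasper* RNAi (1.76% and 2.79% of all genes). The gene that fell was the membrane nucleoporin gene *Gp210* (log2 fold-change -0.22, adjusted p = 0.0366). Upon *jil-1* RNAi 0 of 29 were called in Kc cells, where 1.35% of all genes rose and 2.18% fell. At an unadjusted p under 0.05 there were 5, and no share of all genes was counted at this threshold. The response of *Nup43* differed between lines upon *jasper* RNAi (0.32, adjusted p = 0.0446) and, for RNAi of *jil-1*, in the same direction (0.41, adjusted p = 0.00758), and that of *Nup37* upon *jil-1* RNAi (0.43, adjusted p = 0.0297).

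**Figure D5:**
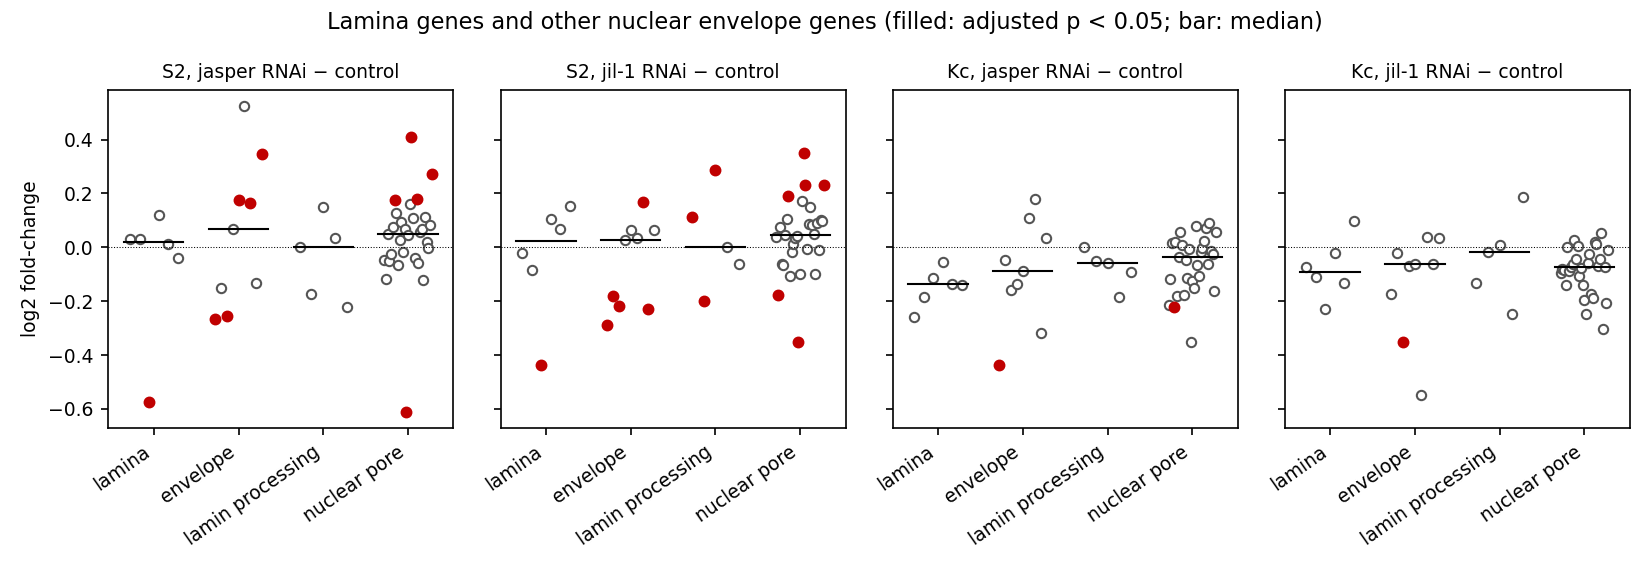
Log2 fold-change upon RNAi relative to control for the 6 lamina genes and the tested genes of the envelope, lamin processing and nuclear pore lists (9, 5 and 29 genes), 1 point per gene in alphabetical order, with the median as a bar and filled points past the threshold. *LamC* (-0.57) and *Nup35* (-0.61) are the lowest points upon *jasper* RNAi in S2 cells, and Kc cells hold 2 filled points upon *jasper* RNAi and 1 for RNAi of *jil-1*.

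The lists were also described by their median log2 fold-change. In S2 cells upon *jasper* RNAi it was 0.068 for the envelope, 0.002 for the lamin processing and 0.049 for the nuclear pore genes, against 0.012 for all genes. For RNAi of *jil-1* these medians were 0.026, 0 and 0.046, against 0.003. In Kc cells they were -0.087, -0.059 and -0.035 upon *jasper* RNAi and -0.062, -0.016 and -0.075 for RNAi of *jil-1*, against 0.005 for all genes in both.

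Between control cells of the lines, 3 of 9 envelope genes were higher and 2 lower in S2 cells, in a comparison where 32.9% of all genes were higher and 35.1% lower. *Msp300*, a giant KASH protein that binds actin, had 867 ± 118 CPM in S2 control cells (n = 5) and 231 ± 17.8 CPM in Kc control cells (n = 4), a log2 difference of 1.90 (adjusted p = 2.13e-08), and *klar* differed by 1.17 (adjusted p = 2.93e-06). The X-linked *fs(1)Ya*, a lamina protein of the egg and early embryo, had 1.2 ± 0.246 CPM in S2 and 5.97 ± 1.9 CPM in Kc control cells, a log2 difference of -2.36 (adjusted p = 7.39e-06), and *kuk* differed by -0.84 (adjusted p = 4.04e-07). Of the 5 lamin processing genes 4 were higher, among them the protease gene *ste24a* (1.09, adjusted p = 1.26e-07) and *Fnta* (0.83, adjusted p = 3.04e-07), and 1, *Icmt*, was lower in S2 cells (-0.65, adjusted p = 5.42e-05). Of the 29 nuclear pore genes 5 were higher, led by *Nup205* (0.99, adjusted p = 3.69e-06) and *Nup93-1* (0.53, adjusted p = 0.000131), and 13 were lower, led by *Aladin* (-1.39, adjusted p = 6.51e-09) and *Nup54* (-0.64, adjusted p = 1.12e-05).

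The lamina genes were also compared with each other across the 26 libraries, once the mean of each line and batch was removed. The highest Pearson's r between members was 0.69, for *Lam* and *LBR*, and the lowest -0.46, for *LamC* and *MAN1*. The 2 genes most like each member were sought among 5855 others whose mean log2 CPM was 4 or more. They were *CG3376* (r = 0.84) and *CG32276* (0.81) for *Lam*, *Arp8* (0.89) and *Tsp42Ed* (0.86) for *LamC*, and *CG15093* (0.76) and *CG10353* (0.72) for *LBR*. For the LEM domain genes they were *Incenp* (0.79) and *Rcc1* (0.78) for *Ote*, *CG14641* (0.88) and *scrib* (0.85) for *bocks*, and *Polr3B* (0.73) and *psidin* (0.72) for *MAN1*. These values describe libraries that share dsRNA treatment and depth, and the genes were picked as the highest of many.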

How the data were processed

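The authors aligned paired reads to release 6 of the fly genome (BDGP6) with STAR 2.6.0 and deposited raw counts per gene for each library, on the strand of the gene, on the opposite strand and without regard to strand. RSEM 1.3.0, also named in the submitters' processing notes, gave values not used here. The first of these counts were used, and summary lines (reads on no feature or on several) were left out. The share of reads on no feature was 5.67 to 10.1%. Libraries were grouped by line and RNAi from the labels. The labels do not say whether replicates came from separate cultures, so p-values measure the spread between these libraries. Within groups, counts of 44 pairs of libraries differed by 3.48 to 60.2 chi-square per degree of freedom, and none was counted as a duplicate.

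Genes with more than 0 reads in every library of a fit were tested with edgeR 4.0.16 (TMM, quasi-likelihood F-test) in R 4.3.3. Each line had 1 model of 3 groups with batch as a block (8465 genes in S2, 8847 in Kc cells). Responses were compared between lines over all 26 libraries (7909 genes) with batch within line, and lines over the 9 control libraries (8375 genes) without a batch term. P-values were Benjamini-Hochberg adjusted over all genes tested, and the threshold was 0.05. Standard errors are the log2 fold-change over the square root of F, and intervals are at 95%. CPM came from 1 TMM scaling of all 26 libraries. Gene positions and exon lengths are from Ensembl release 115, on the same assembly.

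On simulated data, changes of 0.5 on the log2 scale were found for 93% of genes in the S2 *jasper* RNAi comparison (8269 genes), 64% in the Kc one (8575), 73% in the difference between lines (7792) and 54% between control lines (8213). No change was planted in the genes of lowest level, and no batch effect was simulated. These shares may therefore not hold for genes with few reads. The members and lists were chosen with earlier results of these data known. In each list and comparison, at most the 2 largest rises and 2 largest falls past the threshold were named. Of the germline markers, 1 of 2 was matched, *nos* at 0.255 to 1.81 CPM in S2 and 3.58 to 26.3 CPM in Kc libraries. The alternatives tried were DESeq2 1.42.0, TMM factors of autosomal genes alone, RLE factors, other filters, counts without regard to strand, other batch terms, a replicate block, only the groups compared, S2 batches 1 and 2 only, and each library left out in turn.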

Additional observations from a re-analysis of the deposited data

Results flagged for a closer look

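*LamC* in S2 *jasper* RNAi replicate 8, at 8.03 CPM, stood apart from the other 3 libraries of its group, the nearest of which had 11 CPM. The gap was 0.837 of the range of the group. Over 36 such groups of lamina gene values 1 library stood apart in this way, and chance gives about 1 in 20. Without it *LamC* upon *jasper* RNAi in S2 cells still passed, as it did with any other library left out, with log2 fold-changes of -0.67 to -0.47 and adjusted p of 0.000756 to 0.00979 in edgeR's quasi-likelihood test.

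The *jasper* RNAi response of *LamC* differed between the lines by -0.471 on the log2 scale (S2 minus Kc, interaction term, adjusted p = 0.0459 in edgeR's quasi-likelihood test). In S2 cells *LamC* fell upon *jasper* RNAi, and in Kc cells its log2 fold-change of -0.11 had a 95% interval of -0.29 to 0.06. The adjusted p was above the threshold in 17 of 26 fits that leave out 1 library, with differences of -0.566 to -0.362.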

How the results depend on the processing

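For single lamina genes, 463 of the values under other settings kept their direction and side of the threshold, 5 lost and 1 gained a call and 5 changed sign, and with 1 library left out 777 kept both, 18 lost and 1 gained a call and 38 changed sign. All sign changes were of values that had not passed. They were *Ote* upon *jasper* RNAi in S2 cells with TMM from autosomal genes (-0.013), *LBR* upon *jil-1* RNAi in S2 batches 1 and 2 only (0.016), *MAN1* between the RNAis in S2 cells without a batch term (-0.036), and, between lines upon *jil-1* RNAi, *Lam* with TMM from autosomal genes (-0.005) and *LamC* without regard to strand (0.083). With 1 library left out, the ranges that crossed 0 upon *jasper* RNAi in S2 cells were -0.005 to 0.07 for *Lam*, -0.025 to 0.054 for *LBR*, -0.023 to 0.045 for *Ote* and -0.124 to 0.037 for *bocks*, and upon *jil-1* RNAi -0.079 to 0.015 for *LBR*. In Kc cells they were -0.465 to 0.052 for *bocks* and -0.092 to 0.003 for *MAN1* upon *jasper* RNAi, and -0.049 to 0.016 for *MAN1* upon *jil-1* RNAi. Between the RNAis they were -0.014 to 0.042 for *MAN1* in S2 cells, and -0.043 to 0.048 for *Ote* and -0.069 to 0.026 for *MAN1* in Kc cells. Between lines they were -0.108 to 0.431 for *bocks* upon *jasper* RNAi, and -0.042 to 0.068 for *Lam*, -0.016 to 0.079 for *LBR* and -0.005 to 0.127 for *bocks* upon *jil-1* RNAi.

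The number of lamina genes called was 0 instead of 1 without regard to strand upon *jasper* and *jil-1* RNAi in S2 cells and for the *jasper* difference between lines, and 0 without a batch term upon *jil-1* RNAi in S2 cells and for that difference. Upon *jasper* RNAi in Kc cells it was 1 instead of 0 with DESeq2. With 1 library left out it ranged from 0 to 1 upon *jasper* RNAi in Kc cells and for the *jasper* difference between lines.

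Over all genes, without a batch term 645 were called upon *jasper* (1719 with it) and 551 upon *jil-1* RNAi (1810) in S2 cells, 58 (403) and 57 (312) in Kc cells, 134 (540) and 6 (52) between the RNAis in S2 and Kc cells, and 91 (342) and 78 (627) between lines upon *jasper* and *jil-1* RNAi. DESeq2 called 709 upon *jasper* and 634 upon *jil-1* RNAi and 316 between the RNAis in Kc cells. Without a filter these were 739, 589 and 408, with 932 between the RNAis in S2 cells and 606 between lines upon *jasper* RNAi. With only the groups compared, 159 were called upon *jasper* RNAi in Kc cells, and 318 in S2 and 20 in Kc cells between the RNAis. With 1 library left out, counts ranged from 1144 to 1858 upon *jasper* RNAi in S2 cells, 138 to 466 and 133 to 336 upon *jasper* and *jil-1* RNAi in Kc cells, 308 to 529 and 11 to 82 between the RNAis in S2 and Kc cells, and 212 to 428 and 348 to 699 between lines upon *jasper* and *jil-1* RNAi. The cause of these differences was not tested.

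The replicate numbers were not used as pairs. Deviations of same-numbered libraries from the fit of group and batch had correlations of -0.37 to 0.06 in S2 and -0.26 to 0.11 in Kc cells (12 pairs of libraries each). Fitting group and batch in itself pushes such correlations below 0, so they do not settle whether the numbers mark pairs. Under a replicate block *LamC* had log2 fold-changes of -0.60 (adjusted p = 0.000829) upon *jasper* and -0.45 (adjusted p = 0.0025) upon *jil-1* RNAi in S2 cells, the block changed no call of a lamina gene, and 83 genes were called between the RNAis in Kc cells, against 52 with batch. Depth limits *LamC* most, with 51 reads in its smallest S2 library.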
